A study of Mus musculus with 7 samples.

Results

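Mitochondrial ribosomal protein genes were followed through recovery of the mouse stomach from loss of its acid-secreting parietal cells. The genes were chosen by symbol, as probe sets that name a single gene whose symbol starts with Mrps or Mrpl and a digit, with the brightest probe set kept for each gene. This gave 71 of the 22180 genes measured, 28 named Mrps for the small subunit and 43 named Mrpl for the large subunit. A further 7 genes of the family (Mrpl30, Mrpl33, Mrpl41, Mrpl43, Mrpl44, Mrpl53 and Mrps6) have probe sets that also name another gene, and they were not analysed here.

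The mitochondrial ribosome sits on the inner membrane and translates the few mRNAs of mitochondrial DNA, which encode core subunits of the respiratory chain. All of its proteins are encoded in the nucleus, made on cytosolic ribosomes and imported, then assembled on mitochondrial rRNA. Some descend from bacterial ribosomal proteins and others are found only in mitochondrial ribosomes. Parietal cells are packed with mitochondria, which power the gastric proton pump.

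Transgenic Atp4b-DTR mice aged 8 to 12 weeks carry a diphtheria toxin receptor driven by Atp4b, a gene of the proton pump, so that the toxin acts on parietal cells. Treated mice received 225 ng of toxin per mouse daily for 3 days, and control mice received saline vehicle. All groups carried the transgene label, and littermates served as controls where possible. Gastric corpus, the acid-secreting body of the stomach, was taken for 1 control sample and, counted from the last dose, at 24 h (1 sample), 36 h (1 sample), 48 h (2 samples) and 72 h (2 samples). RNA of each whole-corpus sample was hybridised to 1 array, and values are log2 signal. The labels do not say how many mice each sample holds.

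The labelled tissue held its defining genes: the pump subunits Atp4a and Atp4b had log2 signals of 12.78 and 12.94 on the control array, near the top of a table that ends at 13.5. The 18 parietal markers had a median log2 difference from control of -1.41 (24 h), -0.69 (36 h), -1.23 and -0.87 (48 h) and -0.68 and -0.34 (72 h). Over the same arrays the 11 proliferation markers had medians of 1.56, 1.39, 1.24 and 1.22, 0.89 and 0.57. In RNA of whole corpus, fewer cells of a type and less RNA per cell cannot be told apart. Xist and Eif2s3y showed 1 sex pattern on the control and 24 h arrays and the other on all later arrays. Every comparison of 36 h, 48 h or 72 h with control therefore crosses a change of sex pattern, as does the slope over the toxin arrays, and time and sex cannot be told apart there. The comparison of 72 h with 48 h does not cross it. Array medians over all probe sets were 0.04 to 0.14 higher on the toxin arrays than on the control array, while the median difference over named genes was 0.

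Promoter windows were searched for letters known from nuclear genes for mitochondrial proteins. Windows of 250 bases before to 50 after the transcription start (RefSeq, GRCm38.p6) existed for 62 of the 71 genes. Both strands were searched for GCGCATGCG (NRF1, a transcription factor of nuclear genes for mitochondrial proteins), CCGGAAGT (the ETS family, which includes GABPA), AAGATGGCG (YY1) and TCAAGGTCA (the estrogen-related receptors, ERR). Matches are in capitals, the ETS match on the opposite strand, and the 10 capitals of Mrpl9 are 2 overlapping NRF1 matches, 1 on each strand. Of the 62 genes 24 held at least 1 of the letters and 38 held none. Shown are 1 window for each kind of match and that of Mrpl20, the member with the largest difference between 72 h and 48 h, which holds none. The windows are chr3:94443086-94443385 on the plus strand for Mrpl9, chr14:54426659-54426958 on the plus strand for Mrpl52, chr17:46110754-46111053 on the plus strand for Mrps18a and chr4:155802628-155802927 on the plus strand for Mrpl20.
Mrpl9: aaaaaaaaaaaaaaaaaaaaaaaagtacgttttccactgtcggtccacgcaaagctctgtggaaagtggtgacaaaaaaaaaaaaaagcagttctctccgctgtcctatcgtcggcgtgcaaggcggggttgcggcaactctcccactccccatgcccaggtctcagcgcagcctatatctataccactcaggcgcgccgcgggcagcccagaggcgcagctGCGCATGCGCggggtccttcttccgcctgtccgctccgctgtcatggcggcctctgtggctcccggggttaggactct
Mrpl52: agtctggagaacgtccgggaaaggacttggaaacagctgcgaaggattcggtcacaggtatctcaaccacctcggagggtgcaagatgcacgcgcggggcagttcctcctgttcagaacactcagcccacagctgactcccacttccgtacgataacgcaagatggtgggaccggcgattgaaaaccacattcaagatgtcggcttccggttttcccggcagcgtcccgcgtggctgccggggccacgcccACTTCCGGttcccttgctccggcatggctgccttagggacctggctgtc
Mrps18a: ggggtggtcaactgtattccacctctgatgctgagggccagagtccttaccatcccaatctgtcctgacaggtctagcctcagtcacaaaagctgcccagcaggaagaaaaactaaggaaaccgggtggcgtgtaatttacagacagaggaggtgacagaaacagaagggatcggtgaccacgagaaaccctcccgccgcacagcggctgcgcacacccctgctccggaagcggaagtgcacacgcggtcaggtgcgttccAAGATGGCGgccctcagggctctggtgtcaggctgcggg
Mrpl20: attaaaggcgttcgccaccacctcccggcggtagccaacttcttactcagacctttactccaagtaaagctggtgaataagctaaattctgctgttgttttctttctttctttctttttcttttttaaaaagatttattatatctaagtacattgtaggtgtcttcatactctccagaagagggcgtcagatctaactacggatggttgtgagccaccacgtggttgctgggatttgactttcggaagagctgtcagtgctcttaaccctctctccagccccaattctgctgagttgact

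The NRF1 letters stood in the windows of 7 of the 62 genes (11.3%), against 2.65% of the 16990 measured genes with a window and 1.75% of all 32851 windows. The ETS letters stood in 10 genes (16.1%, against 5.62% of measured genes and 3.89% of windows) and the YY1 letters in 8 (12.9%, against 2.17% and 1.40%). The ERR letters stood in 0 of the 62, in 0.365% of measured genes and in 0.423% of windows. A match describes these letters only. Genes with the NRF1, ETS and YY1 letters had median 72 h minus 48 h log2 differences of 0.14, 0.12 and 0.30, beside 0.18 over all 71 members. A link between the letters and these differences was not tested. For the factors themselves, Nrf1 had log2 signals of 6.36 on the control array, 6.60 (24 h), 6.45 (36 h), 6.47 and 6.38 (48 h) and 6.37 and 6.32 (72 h). Gabpa lay between 8.05 and 8.26 and Yy1 between 8.05 and 8.40 on the 7 arrays.

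Through the time course, the 71 genes lay near control at 24 h and 48 h and above it at 72 h. Their median log2 difference from control was 0.00 at 24 h, 0.08 at 36 h, -0.04 and 0.00 on the 48 h arrays, and 0.13 and 0.15 on the 72 h arrays. On the 72 h arrays 57 and 53 of the 71 were higher than control, against 45.8% and 45.9% of all genes. On the 48 h arrays 30 and 33 were higher, against 43.6% and 44.9% of all genes. The summed signal of the 71 genes on the log2 scale was 13.06 on the control array, 13.08 (24 h), 13.18 (36 h), 13.02 and 13.09 (48 h) and 13.25 and 13.28 (72 h). Under other scalings the subunit medians at 24 h and 48 h and the Mrps median at 36 h fell on either side of control. The Mrpl median at 36 h and both medians at 72 h stayed above it.

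**Figure D1:**
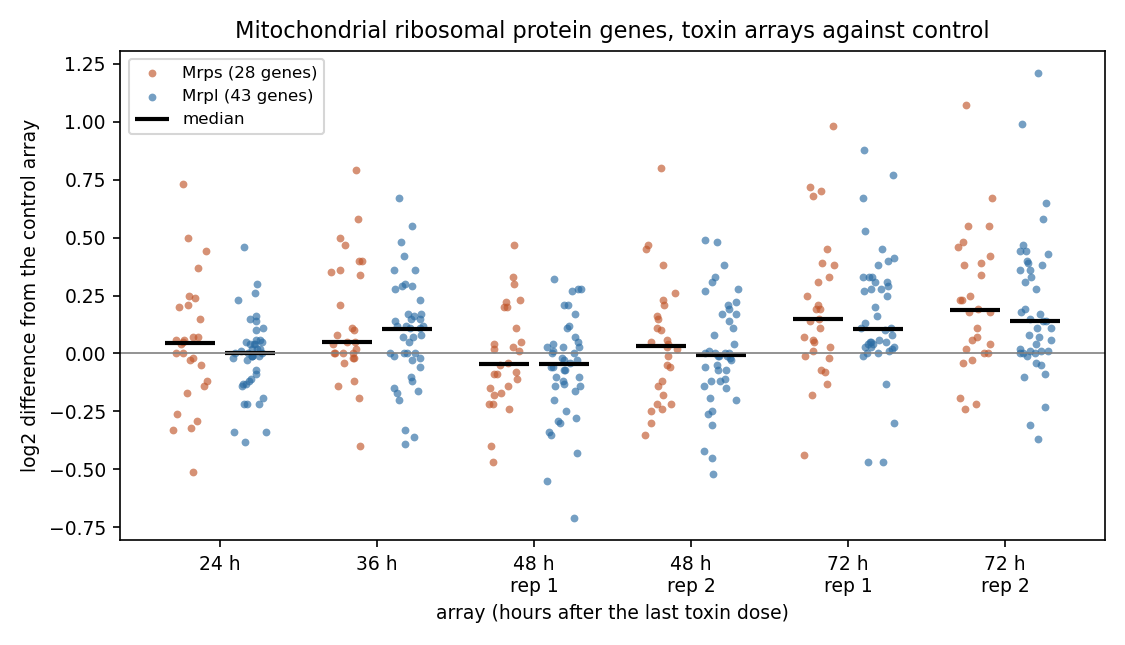
Each point is 1 gene's log2 difference from the control array (vertical axis) on each of the 6 toxin arrays (horizontal axis), with Mrps genes left and Mrpl genes right of each position and black bars at the medians. Both medians lie near 0 at 24 h and 48 h and between 0.11 and 0.19 on the 72 h arrays.

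In the comparison of subunits, the 28 Mrps genes had medians of 0.04 (24 h), 0.05 (36 h), -0.04 and 0.03 (48 h) and 0.15 and 0.19 (72 h). The 43 Mrpl genes had medians of 0.00, 0.11, -0.04 and -0.01, and 0.11 and 0.14 on the same arrays. For 72 h against 48 h the median gene difference was 0.19 for Mrps (24 of 28 higher) and 0.16 for Mrpl (37 of 43 higher). The difference between the subunits was not tested, since the genes of a subunit are not replicates.

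At 24 h the genes split evenly, with 36 higher and 32 lower than control. Only 5 of 71 were at least 1.25-fold higher, against 11.3% of all genes, and 5 were at least 1.25-fold lower, against 13.8%. The highest was Mrps26, a small-subunit protein particular to mitochondria, at 7.26 against 6.53 on the control array. Mrps16, a small-subunit protein with a bacterial counterpart, was at 6.22 against 5.71, and Mrpl3, which in bacteria reaches toward the peptidyl transferase centre, at 7.28 against 6.81. A second probe set of Mrps16 was higher than control by only 0.10 at 24 h. The lowest were Mrps14, at 4.63 against 5.15, and Mrpl57, at 6.13 against 6.52. Also among the lowest were Mrps31, Mrps21, Mrpl49 and Mrpl27, by 0.32 to 0.34 in size, and Mrpl15 was among the highest, at 7.24 against 6.94. With 1 array at 24 h and 1 at 36 h, these differences have no replicate check. Of the 71 members, 67 had a mean signal at or above the median of all genes. Mrps14, Mrpl27, Mrpl32 and Mrps36 lay under it, so their differences here and below rest on dim signal.

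At 36 h, 15 of 71 genes were at least 1.25-fold higher than control (11.5% of all genes) and 4 at least 1.25-fold lower (13.5% of all genes). Of the 15, 9 were Mrps and 6 Mrpl genes. Mrps27, a pentatricopeptide repeat protein of the small subunit, was at 6.87 against 6.08. Mrpl3 was at 7.49 against 6.81, and Mrps25 at 6.91 against 6.34. Lower were Mrps28, at 5.73 against 6.13, Mrpl27, whose bacterial counterpart lies beside the peptidyl transferase centre, at 4.47 against 4.85, and Mrpl49, at 7.04 against 7.37. Mrpl20 was among the highest, at 6.25 against 5.70, and Mrpl57, Mrps31 and Mrps21 among the lowest, at 6.15, 7.31 and 6.65 against 6.52, 7.5 and 6.79. No member reached 2-fold. At 24 h 1.20% of all genes were at least 2-fold higher and 1.67% lower, and at 36 h 0.933% higher and 1.61% lower.

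At 48 h the members scattered about control. Limma, a linear model with pooled variances, called 0 of 22180 genes at a Benjamini-Hochberg adjusted p under 0.05 (0%), and the smallest adjusted p of a member was 0.140. At an unadjusted p under 0.05, 4 members were higher (8.16% of all genes) and 4 lower (11.6%). Higher were Mrpl52, Mrps16, Mrps22 and Mrps27; lower were Mrpl49, Mrpl54, Mrpl57 and Mrps23. The number higher changed when either 72 h array or 48 h replicate 2 was left out. After subtraction of each array's median over all probe sets, 0 were higher (3.91% of all genes) and 8 lower (17.5%). With quantile normalisation 8 were higher (9.33% of all genes) and 2 lower (9.80%). The shares of all genes thus moved with the scaling in the same directions as the members. Both 48 h arrays lay above control for 24 members (31.9% of all genes) and below it for 28 (34.4%).

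Mrpl57, a protein of the large subunit particular to mitochondria, had log2 signals of 6.09 and 5.99 at 48 h against 6.52 on the control array. The 24 h array gave 6.13 and the 36 h array 6.15, and the 72 h arrays were at 6.62 and 6.54. All toxin arrays to 48 h thus lay below control and both 72 h arrays above it. Limma gave 48 h minus control as -0.47 ± 0.08 (SE; adjusted p = 0.140) and 72 h minus 48 h as 0.54 ± 0.06 (adjusted p = 0.705). Mrpl27 was lower on all toxin arrays, at 4.51 (24 h), 4.47 (36 h), 4.14 and 4.59 (48 h) and 4.38 and 4.54 (72 h), with 4.85 on the control array. The 2 arrays at 48 h stood 0.45 apart for this gene, which is among the dim members.

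Other members with the largest differences at 48 h were Mrps26, at 6.83 and 7.33 against 6.53 on the control array, and Mrps27, at 6.55 and 6.46 against 6.08. Mrpl3 was at 7.03 and 7.31 against 6.81, and Mrpl21, whose bacterial counterpart binds rRNA, at 5.83 and 5.85 against 5.52. These 4 lay above control on every toxin array. Lower at 48 h were Mrps21, at 6.32 and 6.55 against 6.79, the dim Mrps36, at 3.80 and 3.97 against 4.20, and Mrpl13, at 6.22 and 6.52 against 6.77. Limma gave Mrps26 the largest of these 7 differences, 0.55 ± 0.25 (SE; adjusted p = 0.380).

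At 72 h more members lay above control. Limma again called 0 of 22180 genes at an adjusted p under 0.05 (0%), with 0.146 the smallest adjusted p of a member. At an unadjusted p under 0.05, 16 members were higher (22.5%, against 7.93% of all genes), 6 Mrps and 10 Mrpl, and 1 was lower (10.0% of all genes). With dim genes left out, the 16 higher were of 67 members, against 10.2% of the genes kept, and the 1 lower stood against 14.2%. Both 72 h arrays were above control for 48 members (67.6%, against 34.2% of all genes) and below it for 7 (33.9% of all genes). The 48 h and 72 h comparisons share the 1 control array, so that array's error enters both.

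Mrps16 had log2 signals of 6.69 and 6.79 at 72 h against 5.71 on the control array, 2.04-fold higher. Its 24 h to 48 h arrays lay between, at 6.04 to 6.22. Limma gave 72 h minus control as 1.03 ± 0.09 (SE; adjusted p = 0.146). The gene has a second probe set, which gave 0.50 for the same difference. Mrpl20, which in bacteria binds rRNA early in large-subunit assembly, was at 6.57 and 6.91 at 72 h against 5.70 on the control array, a difference of 1.04 ± 0.26 (adjusted p = 0.218). Mrpl9 was at 7.58 and 7.80 at 72 h against 6.82, a difference of 0.88 ± 0.17 (adjusted p = 0.176). All 3 of these genes had both 72 h arrays above every other array.

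Mrpl49 was the member lower at an unadjusted p under 0.05 at 72 h, at 6.90 and 7.0 against 7.37 on the control array (-0.42 ± 0.10, limma adjusted p = 0.201). It stayed at 6.92 to 7.07 on the other toxin arrays, so no toxin array reached the control level. All 6 toxin arrays lay below control for 4 members, Mrpl16, Mrpl27, Mrpl49 and Mrps31 (22.6% of all genes), and above it for 17 (20.2% of all genes). Mrps31 was at 7.43 and 7.31 at 72 h against 7.5 on the control array, and Mrps2 at 6.49 and 6.39 against 6.61. Mrps26 was at 7.26 and 7.2 against 6.53 (0.70 ± 0.25, limma adjusted p = 0.315).

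The comparison of 72 h with 48 h uses no control array. The median member difference was 0.18 on the log2 scale, with 61 members higher, 9 lower and 1 equal; over all genes the median was 0.00, with 11328 higher and 10437 lower. Both 72 h arrays exceeded both 48 h arrays for 43 members (60.6%, against 16.7% of all genes), and both lay below for 4 (5.63%, against 13.0%), namely Mrpl18, Mrps10, Mrps14 and Mrps2. Of these, Mrpl18 was nearly level, at 7.88 on both 72 h arrays and 7.89 on both 48 h arrays. For Mrps10, 1 array of each time rounded to 6.29. Limma called 0 of 22180 genes at an adjusted p under 0.05 (0%), and every member's adjusted p was 0.705 or more. At an unadjusted p under 0.05, 19 members were higher (26.8%, against 4.27% of all genes), 6 Mrps and 13 Mrpl, and 0 lower (2.80% of all genes). With dim genes left out, 19 of 67 members were higher, against 6.25% of the genes kept, and 0 lower, against 3.14%. Without 48 h replicate 1 the 19 became 9, against 8.04% of all genes, and the 0 lower became 1 without 48 h replicate 2 or 72 h replicate 1. After subtraction of each array's median over all probe sets, 66 members were higher and 5 lower, against 15828 and 6352 of all genes.

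**Figure D2:**
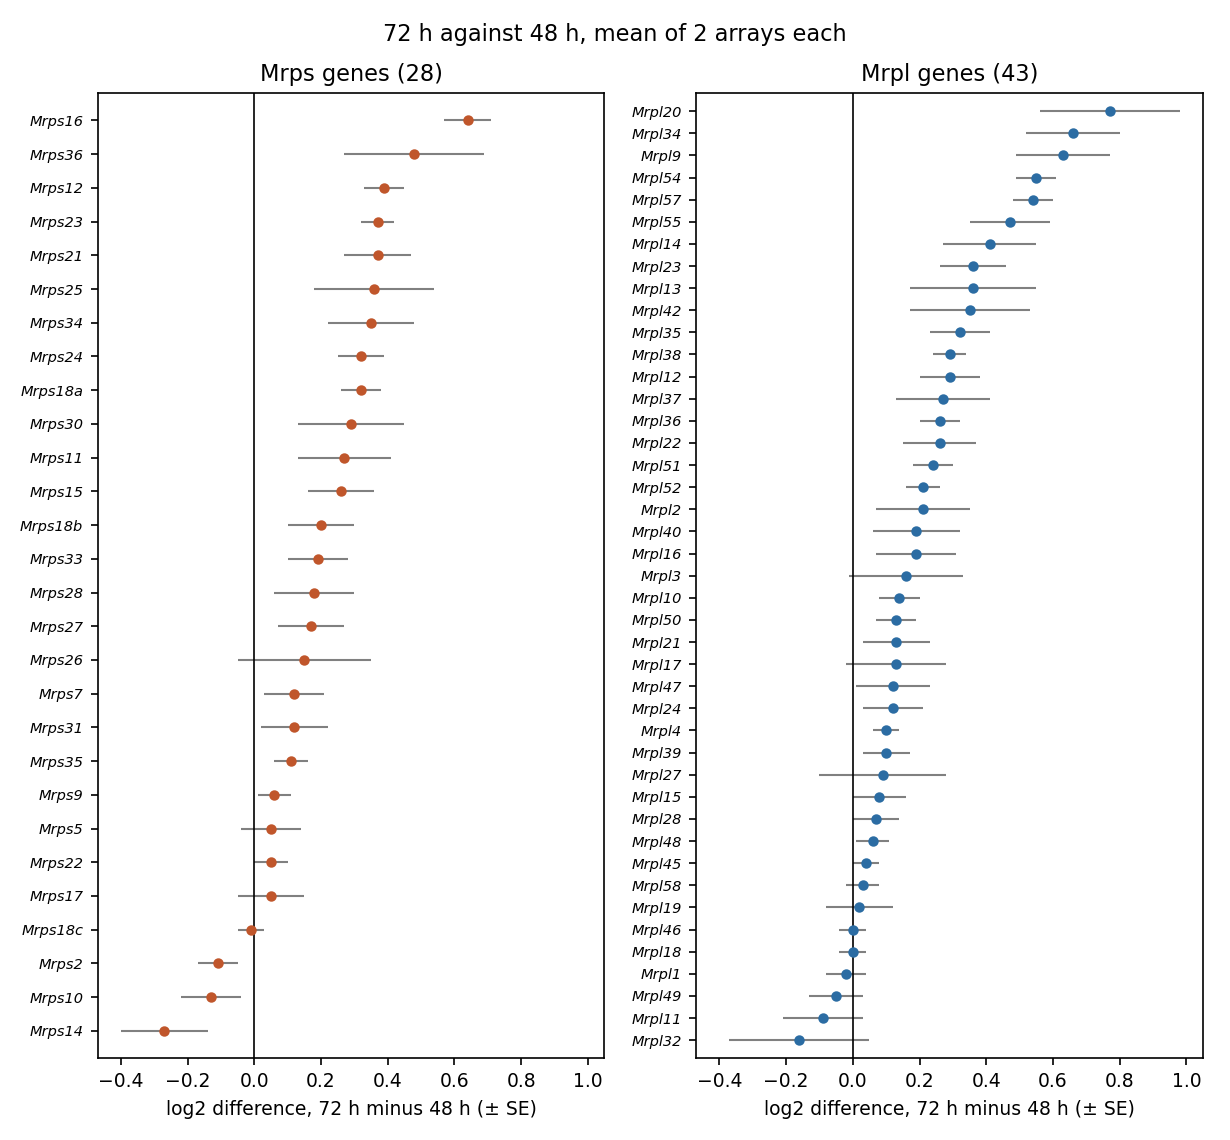
Points are each gene's log2 difference, 72 h minus 48 h (mean of 2 arrays each), with the limma standard error as a bar, for 28 Mrps genes (left panel) and 43 Mrpl genes (right panel). Most points lie right of 0, up to 0.64 for Mrps16 and 0.77 for Mrpl20, and Mrps14 lies lowest at -0.27.

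Mrpl20 stood at 6.57 and 6.91 at 72 h and at 5.76 and 6.18 at 48 h, a 1.70-fold difference with a limma 95% interval of 0.10 to 1.43 on the log2 scale (adjusted p = 0.705). Mrpl34, a small basic protein of the large subunit with a bacterial counterpart, stood at 8.15 and 8.39 at 72 h and at 7.49 and 7.74 at 48 h (0.66 ± 0.14, SE). For both genes the arrays of the 2 times did not overlap. Mrpl54 was at 7.36 and 7.26 at 72 h and 6.75 and 6.78 at 48 h (0.55 ± 0.06, unadjusted p = 0.002 in limma). Mrps16 was at 6.69 and 6.79 at 72 h and 6.04 and 6.17 at 48 h (0.64 ± 0.07), while its second probe set differed by 0.21.

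A group of 13 members (18.3%) lay below control on both 48 h arrays and above it on both 72 h arrays, against 2.45% of all genes. The reverse held for 0 members and 1.60% of all genes. The 13 include Mrps12, the decoding-centre protein, at 6.48 and 6.45 at 72 h, 6.13 and 6.02 at 48 h and 6.27 on the control array. They also include Mrps23, at 7.84 and 7.76 at 72 h, 7.46 and 7.40 at 48 h and 7.70 on the control array. These counts share the control array between both times. Some of the 13 lay close to control at 72 h, such as Mrpl57, at 6.54 on 1 array against 6.52. For such genes the sign depends on the scaling.

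At the other end, Mrps14, a small-subunit protein with a bacterial counterpart, was at 4.7 and 4.91 at 72 h, 5.19 and 4.97 at 48 h and 5.15 on the control array. Its 24 h array was lower still, at 4.63, with 5.19 at 36 h. Mrpl32, at 4.90 and 5.19 at 72 h and 5.41 and 5.0 at 48 h, had pairs that overlap. Mrps14 and Mrpl32 are both among the dim members. Mrps10 was at 6.29 and 6.25 at 72 h and 6.5 and 6.29 at 48 h. Its highest array was that of 36 h, at 6.63.

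**Figure D3:**
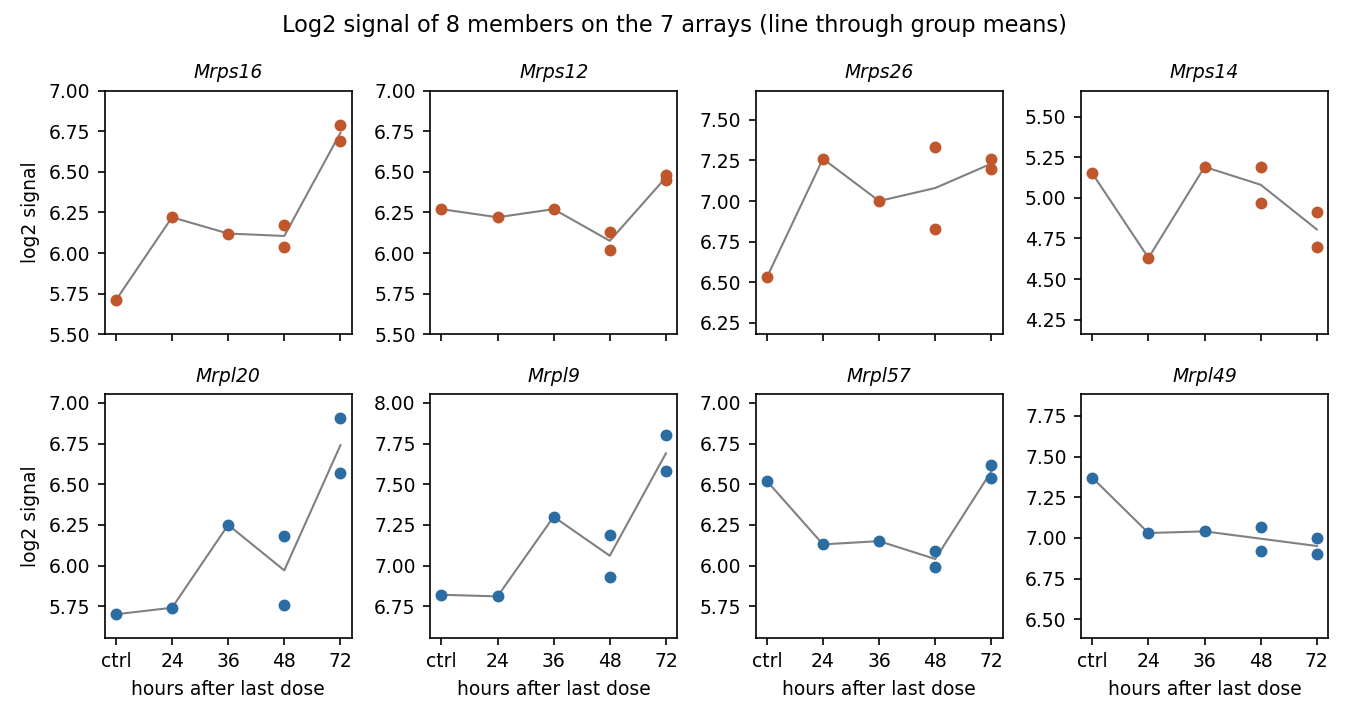
Log2 signal (vertical axes, each 1.5 units high) of 8 genes on the 7 arrays by hours after the last dose, with control at the left and a line through group means. Mrps16, Mrpl20 and Mrpl9 are highest at 72 h, Mrps12 and Mrpl57 are lowest at 48 h, and Mrpl49 is highest on the control array.

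Along the toxin arrays, limma's slope per 24 h was positive for 56 members and negative for 15, with a median of 0.08, against 0.00 over all genes. At an unadjusted p under 0.05 it was above 0 for 11 members (4.22% of all genes) and below 0 for 0 (4.47% of all genes); 0 of 22180 genes passed an adjusted p under 0.05 (0%), and the smallest of a member was 0.450. Leaving out 72 h replicate 2 reduced the 11 to 0 (2.91% of all genes), and leaving out 72 h replicate 1 to 6 (3.78% of all genes). Without the 24 h array, and so within 1 sex pattern, it was above 0 for 8 members (3.36% of all genes) and below 0 for 3 (3.54% of all genes). The steepest was Mrpl20 at 0.47 ± 0.14 (SE), then Mrpl9 at 0.40 ± 0.10 and Mrpl34 at 0.37 ± 0.11. Mrps10, at -0.09, Mrpl45 and Mrps2, both at -0.05, had the lowest slopes.

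Read by place in the ribosome, the 3 genes of the mRNA path, Mrps5, Mrps12 and Mrps24, all had higher means at 72 h than at 48 h, with a median difference of 0.32. Mrps24 stood at 8.09 and 8.17 at 72 h and 7.74 and 7.88 at 48 h. Mrps5 was at 7.91 on both 72 h arrays, against 7.75 and 7.95 at 48 h. Of the 3 stalk genes, which recruit translation factors, Mrpl12 was at 6.65 and 6.76 at 72 h and 6.33 and 6.5 at 48 h. Mrpl11, at the stalk base, was at 6.39 and 6.23 at 72 h and 6.28 and 6.53 at 48 h, with pairs that overlap.

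The 6 genes at the polypeptide tunnel exit all had higher means at 72 h than at 48 h, as did 11328 of all 22180 genes. Their median difference was 0.13, beside 0.18 over all members. For Mrpl17, Mrpl45 and Mrpl47 the arrays of the 2 times overlapped or met. Mrpl23, whose arrays did not, was at 6.44 and 6.20 at 72 h and 5.94 and 5.99 at 48 h. Mrpl45, which ties the ribosome to the inner membrane, stood at 6.84 and 6.83 at 72 h against 6.77 and 6.83 at 48 h. The 7 genes of the central protuberance had a median of 0.09; Mrpl52 was at 8.19 and 8.09 at 72 h and 7.93 on both 48 h arrays, while Mrpl46 was listed at 5.81 on 6 of the 7 arrays.

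By descent, the 43 members with a bacterial counterpart had a median 72 h minus 48 h difference of 0.14 (35 higher, 8 lower). The 27 classed here as particular to mitochondria had 0.19 (25 higher, 1 lower, 1 equal). That class is approximate: it holds Mrps18a and Mrps18b, while their paralogue Mrps18c is classed with the bacterial counterparts. Mrps7 and Mrps22, small-subunit proteins of these classes, stood at 7.12 and 7.33 and at 6.86 and 6.76 at 72 h. At 48 h they stood at 7.08 and 7.13 and at 6.76 on both arrays, and on the control array at 6.87 and 6.53.

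Some symbols do not match the place of their product. Mrps18a and Mrps30 code for large-subunit proteins, and the product of Mrps36 belongs to the 2-oxoglutarate dehydrogenase complex. Mrps18a, whose promoter window holds the YY1 letters, was at 6.82 and 6.93 at 72 h, 6.58 and 6.53 at 48 h and 6.38 on the control array (0.50 ± 0.07 over control, limma adjusted p = 0.153). Its paralogue Mrps18b was at 7.25 and 7.12 at 72 h and 6.89 and 7.08 at 48 h (0.20 ± 0.10), but its second probe set gave -0.13. Mrps18c kept to 5.34 to 5.40 apart from 5.08 at 24 h. Of the 3 paralogues, Mrps18a alone had both 72 h arrays above every other array. Mrps30 was at 7.45 and 7.06 at 72 h and 7.01 and 6.92 at 48 h. Mrps36 was at 4.12 and 4.61 at 72 h, against 3.80 and 3.97 at 48 h.

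Nuclear genes of the respiratory chain, which works with subunits made on mitochondrial ribosomes, were set beside the members; the difference between these lists was not tested. The 63 measured had medians of -0.30 (24 h), -0.11 (36 h), -0.33 and -0.15 (48 h) and 0.05 and 0.26 (72 h). The 17 genes of the TCA cycle had -0.45, -0.16, -0.41 and -0.31, and -0.06 and 0.04. After subtraction of each array's median over all probe sets the 72 h medians were -0.01 and 0.22 for the respiratory chain and -0.12 and 0.00 for the TCA cycle. At 48 h, 17 of the 63 and 10 of the 17 were lower than control at an unadjusted p under 0.05 (11.6% of all genes), and 0 were higher (8.16% of all genes). Ndufs1, a complex I subunit, was at 8.83 and 8.86 at 48 h against 9.61 on the control array. For 72 h against 48 h, 36 of the 63 and 10 of the 17 were higher at an unadjusted p under 0.05 (4.27% of all genes), and 0 were lower (2.80%), none at an adjusted p under 0.05 by limma.

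**Figure D4:**
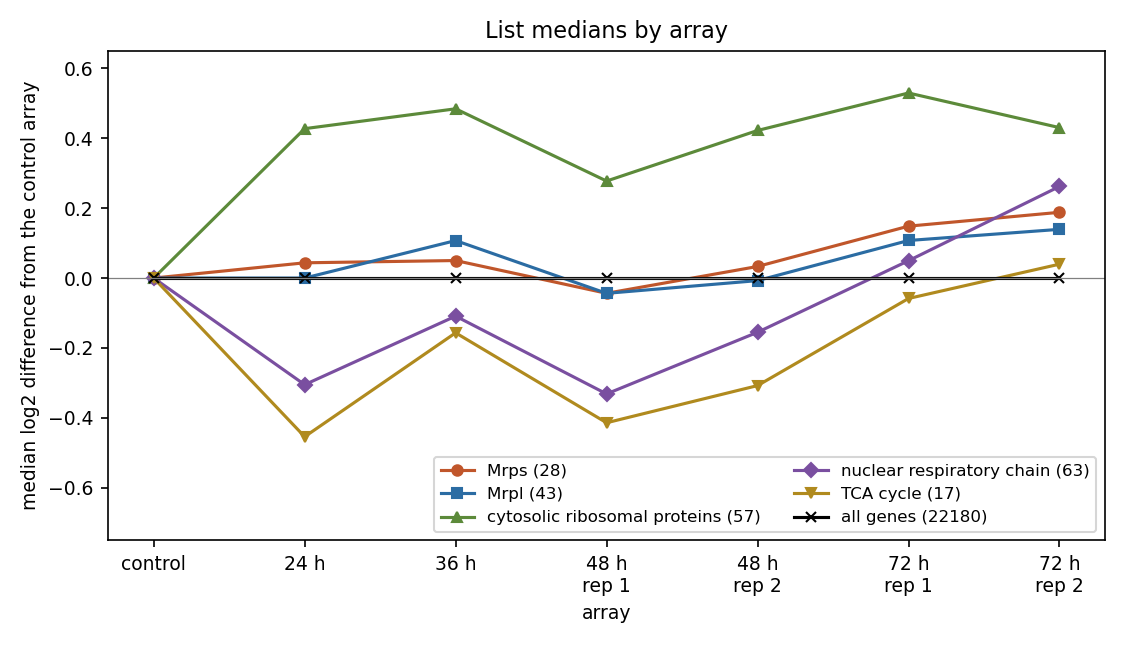
Median log2 difference from the control array (vertical axis) of 6 gene lists on the 7 arrays (horizontal axis). Both subunits of the mitochondrial ribosome stay between -0.04 and 0.19, cytosolic ribosomal protein genes between 0.28 and 0.53 on the toxin arrays, and respiratory chain and TCA cycle genes lie below 0 to 48 h.

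Cytosolic ribosomal protein genes had medians above control at all times. For the 57 genes these were 0.43 (24 h), 0.48 (36 h), 0.28 and 0.42 (48 h) and 0.53 and 0.43 (72 h). Of these, 28 were higher at 72 h than control at an unadjusted p under 0.05 (7.93% of all genes) and 0 lower (10.0%), none at an adjusted p under 0.05 by limma. Rps28 stood at 9.58 and 9.62 at 72 h, 9.08 and 9.22 at 48 h and 8.31 on the control array.

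Among factors that work with the mitochondrial ribosome, Tufm, the elongation factor that delivers aminoacyl-tRNA, was at 8.67 on the control array, 9.06 (24 h), 9.33 (36 h), 8.97 and 9.19 (48 h) and 9.49 and 9.68 (72 h). Limma gave 72 h minus control as 0.91 ± 0.15 (SE; adjusted p = 0.161). Of the 14 translation factors, 4 were higher at 72 h than at 48 h at an unadjusted p under 0.05 (4.27% of all genes) and 0 lower (2.80%). Lrpprc, which stabilises mitochondrial mRNAs, was above control on every toxin array, by 0.48 ± 0.08 at 72 h. Mtrf1, a release factor homologue, was below it, at 5.26 and 4.93 at 48 h against 5.90.

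The 23 assembly factors had a median of -0.14 at 48 h and -0.02 at 72 h, and 5 were higher at 72 h than at 48 h at an unadjusted p under 0.05 (4.27% of all genes) and 0 lower (2.80%). Of the 19 mitochondrial tRNA synthetases and related enzymes, 5 were lower at 48 h than control at an unadjusted p under 0.05 (11.6% of all genes) and 1 higher (8.16%). Vars2, which charges valine tRNA, was at 7.22 and 7.12 at 48 h against 8.19 on the control array (-1.02 ± 0.09, limma adjusted p = 0.120). Of 14 genes for mitochondrial DNA expression, Polrmt, the mitochondrial RNA polymerase, was at 6.71 and 6.94 at 72 h, 6.38 and 6.52 at 48 h and 6.03 on the control array. Tfam, which packages mitochondrial DNA, stayed between 6.34 and 6.61. The largest 48 h differences from control in this list were those of Tfb2m (-0.96), Polg2 (0.62) and Ssbp1 (-0.56). At an unadjusted p under 0.05 in limma, 3 of the 14 were lower at 48 h (11.6% of all genes) and 1 higher (8.16%).

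Among 11 regulators of mitochondrial biogenesis and growth, Myc was at 7.05 on the control array, 8.02 (24 h), 7.92 (36 h), 7.79 and 7.91 (48 h) and 7.61 and 7.47 (72 h). Its highest value was on the 24 h array, where the members' median was 0.00. A link between Myc and the members was not tested. Ppargc1a, a coactivator of nuclear genes for mitochondrial proteins, was at 8.30 and 8.06 at 72 h and 7.89 and 8.08 at 48 h. Esrra was at 7.24 and 7.07 at 72 h against 6.81 on the control array, and Esrrg at 9.47 and 9.52 against 9.48. The largest 48 h differences from control among these regulators were those of Esrrb (-1.20), Myc (0.80) and Pprc1 (0.39). At an unadjusted p under 0.05 in limma, 1 of the 11 was lower at 48 h (11.6% of all genes) and 2 higher (8.16%). The 3 further proteins of the mitochondrial ribosome with other names, Dap3, Gadd45gip1 and Ptcd3, differed by 0.19, 0.24 and 0.16 between 72 h and 48 h.

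The summed signal of the 18 parietal markers, on the log2 scale, was 14.96 on the control array, 13.73 (24 h), 14.37 (36 h), 14.03 and 14.39 (48 h) and 14.52 and 14.75 (72 h). Of the 18, 14 were higher at 72 h than at 48 h, as were 61 of the 71 members. At 24 h, where this signal was lowest, the median of the members was 0.00. The summed proliferation signal was 10.93 and 10.63 at 72 h, 11.32 and 11.19 at 48 h and 10.13 on the control array. Among the other marker lists, all 6 endocrine markers were higher at 72 h than at 48 h (median 0.33), as were 6 of 7 smooth muscle markers (median 0.22). Other lists were mixed: 2 chief markers were higher and 5 lower, 3 immune markers higher and 6 lower, and 2 pit markers higher and 2 lower. Chief and endothelial markers had medians below control on every toxin array, at -0.67 to -1.45 and -0.92 to -1.24. The summed signal of 4 squamous forestomach markers was 9.28 and 6.27 at 72 h, 6.46 and 8.53 at 48 h and 8.46 on the control array, so the replicates of both times differed in it. The part of these markers in the members' values was not tested.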

How the data were processed

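Gastric corpus RNA of 7 samples was measured on 1 Affymetrix WT array each. The deposited values are log2 signal for 41345 probe sets, made by the authors with RMA in Partek, per the submitters' processing notes; no version is named in the sources used here. RMA equalises the arrays, so a change shared by most probes would not show. The values were used as deposited, with array medians of 4.56 to 4.71. All 7 columns were used.

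Of the probe sets, 23521 named 1 gene in the platform's annotation, 1814 several and 16010 none. Those with 1 gene were kept, and the one with the highest mean stood for each of 22180 genes; 23328 of the 23521 matched RefSeq. Of the members, 9 have 2 probe sets, and in 2 of these the pair differ in sign for 72 h against 48 h.

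Group means over all 7 arrays (2 residual degrees of freedom) and a slope per 24 h over the 6 toxin arrays (4 residual) were fitted in limma 3.58.1 (R 4.3.3; lmFit and eBayes), with Benjamini-Hochberg adjustment over all 22180 genes and no covariate. The fit of 48 h against control was tested on simulated data, with independent normal noise of the spread of the pairs in every group. These data held no sex pattern or tied values, and the other comparisons and the slope were not checked on them. The 24 h and 36 h arrays, 1 each, got no test; differences of at least 1.25-fold were counted. The design text calls the samples of 48 h and of 72 h independent, and p-values measure no more than the spread between these arrays. The arrays have no read depth, and their number limits the precision. RMA left 2485 genes with the same value on both 48 h arrays and 2367 on both 72 h arrays, which narrows some errors. Replicate numbers are shared by label only: across genes, which are not independent replicates, replicate 1 minus replicate 2 at 72 h and the same at 48 h correlated at -0.13.

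The members and the gene lists were chosen with earlier results of these data known. Members named were, per comparison, the 3 lowest and 2 highest of each subunit (the 3 highest and 3 lowest overall for 72 h against 48 h and the slope), others of known place or role whatever their values, and members at an unadjusted p under 0.05 chosen after their values were seen. Alternatives were 3 scalings of the arrays, the mean of probe sets, filters on dim genes and on genes with under 6 distinct values, a variance trend, replicate blocks, subunits by structure and leaving out each replicate.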

Additional observations from a re-analysis of the deposited data

Results flagged for a closer look

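Both 72 h arrays lay above control and both 48 h arrays below it for 13 members (18.3%, against 2.45% of all genes) and for the median of the Mrpl genes. That median differed from control by 0.11 and 0.14 at 72 h and by -0.04 and -0.01 at 48 h, 0.15 apart; this difference was not tested. Mrpl14 differed from control by 0.33 and 0.01 at 72 h and by -0.28 and -0.19 at 48 h, 0.41 apart. Mrpl22 differed from control by 0.31 and 0.07 at 72 h and by -0.03 and -0.12 at 48 h, 0.26 apart. Mrpl23 differed from control by 0.38 and 0.14 at 72 h and by -0.12 and -0.07 at 48 h, 0.36 apart. Mrpl36 differed from control by 0.16 and 0.19 at 72 h and by -0.03 and -0.14 at 48 h, 0.26 apart. Mrpl37 differed from control by 0.05 and 0.38 at 72 h and by -0.10 and -0.01 at 48 h, 0.27 apart. Mrpl4 differed from control by 0.06 and 0.06 at 72 h and by -0.04 and -0.03 at 48 h, 0.10 apart. Mrpl48 differed from control by 0.03 and 0.01 at 72 h and by -0.07 and -0.01 at 48 h, 0.06 apart. Mrpl51 differed from control by 0.03 and 0.14 at 72 h and by -0.16 and -0.15 at 48 h, 0.24 apart. Mrpl54 differed from control by 0.27 and 0.17 at 72 h and by -0.34 and -0.31 at 48 h, 0.55 apart. Mrpl57 differed from control by 0.11 and 0.02 at 72 h and by -0.43 and -0.52 at 48 h, 0.54 apart. Mrps12 differed from control by 0.21 and 0.18 at 72 h and by -0.14 and -0.25 at 48 h, 0.39 apart. Mrps15 differed from control by 0.11 and 0.18 at 72 h and by -0.22 and -0.01 at 48 h, 0.26 apart. Mrps23 differed from control by 0.14 and 0.06 at 72 h and by -0.24 and -0.30 at 48 h, 0.37 apart. Limma's adjusted p for 72 h against 48 h was 0.705 to 0.757 for the 13 genes, none under 0.05. On 72 h replicate 2, Mrpl14, Mrpl48 and Mrpl57 exceeded control by only 0.01 or 0.02. The median of that array over all probe sets was 0.04 above control, so the sign for these genes depends on the scaling. No group has the 4 arrays that a check for single outlying arrays needs.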

How the results depend on the processing

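No member passed an adjusted p under 0.05 in any comparison under any setting tried. Over all genes limma called 77 and 13 (48 h and 72 h against control) with array medians subtracted, 167 and 30 with medians over all probe sets, 12 and 6 with quantile normalisation and 143 and 52 where genes with under 6 distinct values were left out, beside 0 and 0; the smallest adjusted p of a member in these was 0.0713. Members higher at an unadjusted p under 0.05 in 72 h against 48 h numbered 19, and 9 to 17 with 1 array left out, the 9 without 48 h replicate 1. The 19 of the main fit stood against 4.27% of all genes. With the replicate block the number was 19 (3.67% of all genes), and with crossed replicate numbers, a choice made after seeing the data, 14 (3.89%). The numbers share only a label. Mrpl32, at -0.16, ran from -0.36 without 48 h replicate 2 to 0.05 without 48 h replicate 1. Subtracting each array's median over all probe sets, also chosen after seeing the data, gave Mrps and Mrpl medians of -0.0327 and -0.0763 at 24 h, -0.0475 and 0.0096 (36 h), -0.1435 and -0.1471 (48 h) and 0.1268 and 0.1203 (72 h), where all genes shifted by -0.0763 at 24 h, -0.0976 at 36 h, -0.0972 and -0.1411 on the 48 h arrays and -0.0607 and -0.0432 on the 72 h arrays; the 72 h minus 48 h median of members was then 0.2509, beside 0.0708 over all genes. Quantile normalisation over named genes gave 0.0449 for Mrpl at 24 h, 0.0974 and 0.1423 for Mrps and Mrpl at 36 h, both again at 48 h with 0.039 and 0.0707, and 0.2238 for Mrps at 72 h. The mean of probe sets gave 0.0795 for Mrpl at 36 h, and subunits by structure 0.1455 for the small subunit at 72 h. With 1 array of the pair left out, the Mrps median ran from -0.0436 to 0.0331 at 48 h and from 0.1484 to 0.188 at 72 h, and the Mrpl median from -0.0437 to -0.0073 and from 0.1074 to 0.1393. The side of control on which the medians lie depended on the setting at 24 h and 48 h and, for Mrps, at 36 h; the Mrpl median at 36 h and both at 72 h were above control in every setting run. The causes were not tested. Of the other values, 507 held and 23 moved.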
